A study of Mus musculus with 10 samples.

Results

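The transcripts described here are those of 38 genes of the autophagy and mitophagy machinery, chosen by name out of the 55450 genes of the deposited count table. All 38 were found in the table and all 38 had enough counts to be tested. The RNA came from corneal endothelium that had been peeled off, the layer of cells that lines the inner corneal surface, of C57BL/6 mice aged 12 weeks. The groups were mice without the membrane transporter gene Slc4a11 (Slc4a11-/-, KO) and mice with both copies intact (Slc4a11+/+, WT), with 5 libraries each. Each library is a pool of the peelings of 6 eyes (3 animals), and error between libraries is error between such pools. The comparison asked which genes differ in the peelings when Slc4a11 is missing.

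Autophagy wraps a piece of cytoplasm in a double membrane and delivers it to the lysosome for breakdown. A kinase complex starts the process, a lipid kinase complex marks the site, transfer proteins supply membrane, and a chain of conjugation enzymes attaches small proteins of the ATG8 family to the growing membrane. Receptor proteins bind cargo to ATG8, and in mitophagy the cargo is a mitochondrion. Corneal endothelial cells are rich in mitochondria and hardly divide, so they must clear worn parts rather than dilute them. Much of the control of autophagy lies in phosphorylation, lipid attachment and protein turnover, which transcript counts do not measure.

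Total counts ranged from 36026193 to 51008996 per library. Slc4a11 stood at 3487 to 4354 CPM (read counts scaled to the size of each library) in WT and at 70.0 to 114 CPM in KO, and no library went against its label. The 9 markers of corneal endothelium were all expressed, with a summed level of 34208 to 39034 CPM in WT and 30173 to 36277 CPM in KO. That sum includes Slc4a11 itself, the only one of them with an edgeR adjusted p under 0.05. Slc4a4 did not pass (log2 fold change -0.31, edgeR adjusted p = 0.070). Its libraries were nonetheless separate, at 937 to 1002 CPM in WT and 560 to 878 CPM in KO. Other cells were present too. Markers of stromal keratocytes summed to 66636 to 102678 CPM in WT and 69775 to 93615 CPM in KO. Of 10 markers 1 rose (Thy1) and 2 fell. Kera fell by 0.48 and Ptgds by 0.83 on the log2 scale (edgeR adjusted p = 0.030 and 0.040). Thy1 rose by 1.61 (edgeR adjusted p = 0.042), but its level was very low. It was at 0.091 to 0.355 CPM in WT and 0.167 to 0.969 CPM in KO. Markers of corneal epithelium summed to 53.4 to 187 CPM in WT and to 55.1 CPM in KO 3, 216 CPM in KO 4, 579 CPM in KO 2, 1820 CPM in KO 1 and 3487 CPM in KO 5, and 8 of the 11 tested markers rose. KO 1, KO 2 and KO 5 thus stood furthest apart, and KO 4 was also above the highest WT library. Results are also given from a fit in which KO 3 and KO 4 alone stood for KO. That fit is not free of other cells. Pigment cell markers summed to 2.97 to 7.09 CPM in WT and were highest in KO 3, at 16.4 CPM, though none of the 3 tested was called. Schwann cell markers were higher in every KO library (81.5 to 116 CPM) than in any WT library (58.8 to 66.9 CPM), and 4 of 6 rose. Markers of blood vessels summed to 102 to 152 CPM in WT and 81.0 to 104 CPM in KO. Of the 5 tested, 1 was called higher (Plvap) and 1 lower (Kdr). Kdr alone made up most of that sum, with 99.6 to 149 CPM in WT and 77.6 to 99.8 CPM in KO. The sum therefore mainly tracks Kdr (log2 fold change -0.52). The remaining tested vessel markers had positive log2 fold changes: Plvap 1.18, and, not called, Emcn 1.41, Pecam1 0.95 and Cdh5 0.89. Their levels were low, at most 2.485 CPM (Pecam1 in KO 2). No marker was at 0 in every library. The part of these other cells in the results below was not tested beyond those fits, and in bulk RNA fewer cells of a type and less RNA per cell cannot be told apart.

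Most of the machinery differed little between genotypes, with 36 of 38 log2 fold changes within 0.3 of 0. Small differences were common in the whole table too. The median absolute log2 fold change was 0.11 for the members and 0.15 over all genes tested. Of the 38 genes, 2 rose and 5 fell in KO, and 31 did not pass (edgeR quasi-likelihood test, adjusted p under 0.05 over the 17729 genes tested). That is 18.4% of the members, against 15.3% of all genes tested, so the share of changed genes lay near the background. For single directions the background was 7.59% (1346 genes) higher and 7.73% (1370 genes) lower, and 1553 higher and 1054 lower with total counts. The background was 31.1% for an unadjusted p under 0.05 in edgeR and 20.2% for calls by DESeq2, which called 5 members higher and 6 lower. The genes that rose were Wipi2 and Calcoco1, and those that fell were Atg10, Atg2b, Optn, Ulk1 and Ulk2. The genotypes had separate ranges for 3 members, Wipi2 higher (background 5.88%) and Ulk2 and Atg10 lower (background 6.16%), against 12% of all genes tested in either direction. With the epithelial markers as covariate, Atg10 (-0.50, edgeR adjusted p = 0.013) and Calcoco1 (0.32, edgeR adjusted p = 0.028) were the members that passed, and on KO 3 and KO 4 alone Atg10 and Atg2a were. Log2 fold changes (KO minus WT) ran from -0.46 to 0.25, with a median of 0.06 against 0.00 over all genes tested. Of the members 25 of 38 were above 0, and of all genes tested 8956 of 17729 were. Where ± follows a CPM value, it is the SD over the 5 pools of a genotype. For the 31 members that did not pass, the 95% intervals of single genes lay between -0.57 and 0.45.

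**Figure D1:**
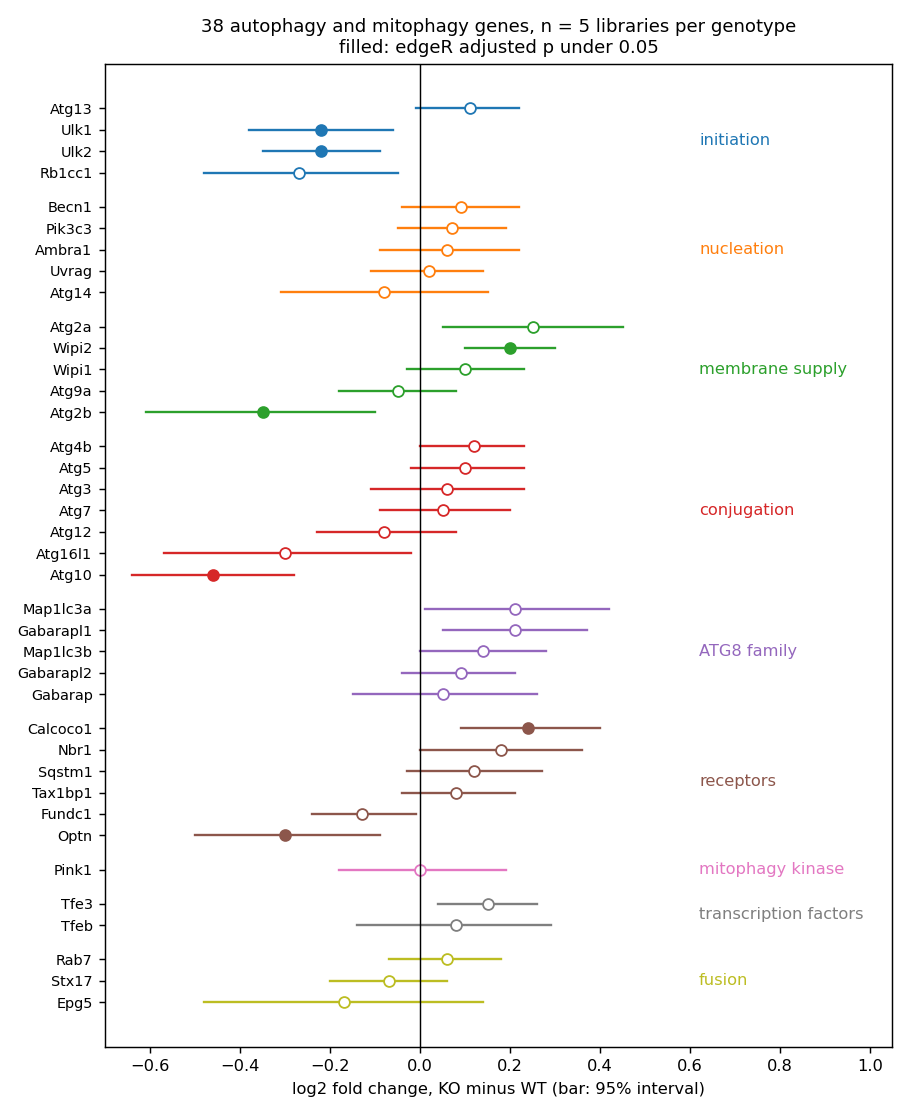
Log2 fold change (KO minus WT, x axis) of each of the 38 genes, grouped by role, with 95% intervals of single genes as bars (n = 5 libraries per genotype). Filled circles mark the 7 genes with an edgeR adjusted p under 0.05; all 38 values lie between -0.46 (Atg10) and 0.25 (Atg2a).

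Levels were compared between genes as TPM, which divides the counts by the union of a gene's annotated exons and scales each library to the same total. The order was led by Pink1, a mitochondrial kinase, at 419 ± 31.1 TPM (SD over all 10 libraries). Gabarap (394 ± 35.0 TPM), an ATG8 protein, and Rab7 (358 ± 20.7 TPM), a small GTPase of late endosomes, had library ranges that overlapped that of Pink1. All 3 lay above 98% of the tested genes. The group from 100 to 200 TPM held Gabarapl1, Sqstm1, Gabarapl2 and Map1lc3a. At the lower end, 8 members were below 10 TPM. The lowest were Atg2b at 5.53 ± 1.11 TPM and Atg16l1 at 4.05 ± 0.804 TPM. The median member was above 69.3% of the tested genes. By the mean over all libraries, all 5 ATG8 genes and 4 of the 6 receptors were above every gene of the initiation, nucleation, membrane supply and conjugation roles. In WT alone the order differed, since Atg10 at 65.3 TPM was above Map1lc3b at 62.3 TPM and Tax1bp1 at 62.55 TPM. The scale understates a gene with long exons that its transcripts seldom use.

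**Figure D2:**
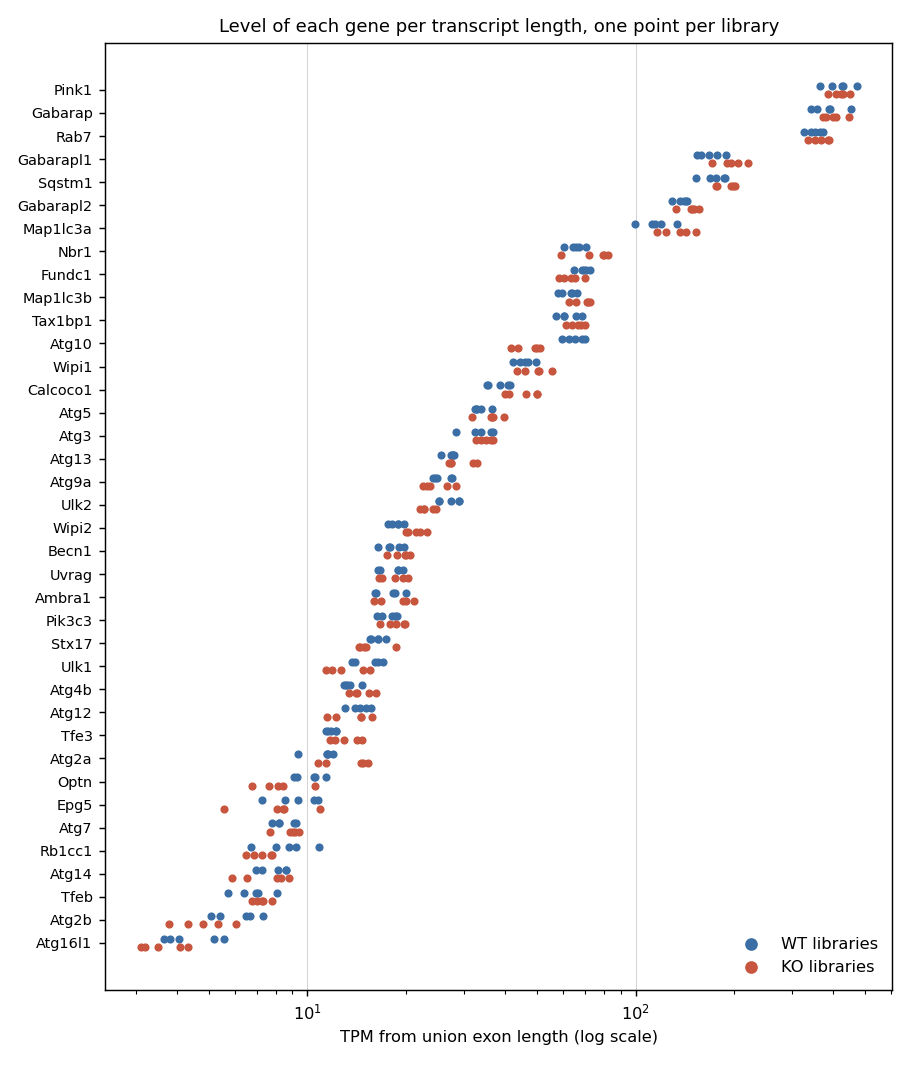
TPM from union exon length (x axis, log scale) of the 38 genes in each library, WT in blue and KO in red. Genes run from Pink1, Gabarap and Rab7 at the top to Atg2b and Atg16l1 at the bottom, and the points of the genotypes lie close together for nearly all of them.

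The initiation complex phosphorylates its targets when nutrients are short. Its alternative kinases Ulk1 and Ulk2 fell slightly, and edgeR did not call its scaffolds Rb1cc1 (FIP200) and Atg13. Ulk2 (ENSMUSG00000004798.14, chr11:61775649-61855073 in GRCm38, minus strand) was at 52.3, 50.7, 57.3, 59.7 and 53.6 CPM in WT 1 to 5 and at 49.6, 47.9, 46.3, 44.0 and 46.7 CPM in KO 1 to 5. Every KO library was below every WT library. The log2 fold change of Ulk2 was -0.22 (SE 0.06, edgeR adjusted p = 0.020). The call was lost without KO 4 (-0.20, edgeR adjusted p = 0.052) and on KO 3 and KO 4 alone (-0.27, edgeR adjusted p = 0.077). It was also lost with the epithelial markers as covariate (-0.24, edgeR adjusted p = 0.075) and with the replicate block (-0.22, edgeR adjusted p = 0.083).

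Ulk1 (ENSMUSG00000029512.11, chr5:110784488-110810097, minus strand) was at 30.9, 35.9, 34.45, 31.2 and 36.2 CPM in WT 1 to 5 and at 28.1, 26.95, 31.6, 31.2 and 26.7 CPM in KO 1 to 5. The groups overlapped, since KO 3 and KO 4 lay within the WT range and KO 1, KO 2 and KO 5 below it. The log2 fold change of Ulk1 was -0.22 (SE 0.07, edgeR adjusted p = 0.049). On KO 3 and KO 4 alone, it was at -0.10 (edgeR adjusted p = 0.57). With the epithelial markers as covariate it was at -0.14 (edgeR adjusted p = 0.36), and with the replicate block at -0.22 (edgeR adjusted p = 0.11). It was also not called without WT 2, WT 3, WT 4, WT 5, KO 1, KO 2 or KO 5 (-0.25 to -0.19), nor with libraries scaled to total counts or with no filter on low counts. Rb1cc1 averaged 43.2 ± 6.77 CPM over the WT pools and 35.9 ± 1.70 CPM over the KO pools (log2 fold change -0.27, edgeR adjusted p = 0.073). Rb1cc1 was called lower by DESeq2, with the keratocyte markers as covariate (-0.28, edgeR adjusted p = 0.035) and without WT 1. Atg13, which had the highest level per length of the 4, was at 42.3, 40.8, 39.5, 38.3 and 39.95 CPM in WT and at 40.5, 43.7, 43.9, 46.7 and 41.3 CPM in KO. These ranges overlapped (log2 fold change 0.11, edgeR adjusted p = 0.18).

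None of the 5 genes of the nucleation complex was called by edgeR (background 15.3%), none had an unadjusted p under 0.05 (background 31.1%), and DESeq2 called 0 (background 20.2%). This complex makes phosphatidylinositol 3-phosphate, the lipid mark of the site where the membrane grows. Its lipid kinase Pik3c3 (VPS34) was at 0.07 on the log2 fold scale, its core subunit Becn1 (Beclin 1) at 0.09, and its alternative partners Atg14 and Uvrag at -0.08 and 0.02. Ambra1, a regulator of Beclin 1, was at 0.06. The edgeR adjusted p ran from 0.30 for Becn1 to 0.87 for Uvrag. Becn1 was at 43.7, 46.8, 41.85, 40.05 and 43.9 CPM in WT and at 45.3, 44.9, 43.8, 45.8 and 50.1 CPM in KO. Only KO 5 lay above the WT range. The counts of Uvrag are uncertain, because 1589 bases of its exons overlap Gm45187, an antisense gene at 70.8 CPM, and whether reads were counted by strand is not stated in the sources used here.

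Genes that bring membrane to the site moved in both directions. Wipi2, which binds the lipid mark and recruits the conjugation machinery, rose. Atg2b, one of a pair of lipid transfer proteins, fell. Wipi2 (ENSMUSG00000029578.15, chr5:142627698-142670588, plus strand) was at 66.6, 67.1, 65.7, 63.9 and 67.9 CPM in WT and at 77.4, 76.4, 72.9, 79.3 and 73.8 CPM in KO. All KO libraries were above all WT libraries. Its log2 fold change was 0.20 (SE 0.04, edgeR adjusted p = 0.012). No left-out library ended the call, and on KO 3 and KO 4 alone the value was 0.21 (edgeR adjusted p = 0.092). The call was also lost with the epithelial markers as covariate (0.19, edgeR adjusted p = 0.078) and with the replicate block (0.20, edgeR adjusted p = 0.065).

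Atg2b (ENSMUSG00000041341.10, chr12:105616136-105685211, minus strand) was at 23.8, 30.3, 32.65, 25.1 and 28.7 CPM in WT and at 24.7, 21.1, 25.6, 21.1 and 17.6 CPM in KO. KO 1 and KO 3 lay within the WT range and the other KO libraries below it. The log2 fold change of Atg2b was -0.35 (SE 0.11, edgeR adjusted p = 0.0496). It was not called without WT 2, WT 3, WT 4, WT 5, KO 1, KO 2, KO 4 or KO 5 (-0.39 to -0.28), with total counts, or on KO 3 and KO 4 alone (-0.26, edgeR adjusted p = 0.28). Atg2b also lost its call with the epithelial markers as covariate (-0.28, edgeR adjusted p = 0.25) and with the replicate block (-0.36, edgeR adjusted p = 0.069). Its exons share 383 bases with Gskip on the opposite strand (19.3 CPM, log2 fold change 0.03).

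Its paralog Atg2a was at 25.1, 31.2, 29.5, 30.4 and 28.9 CPM in WT and at 38.4, 31.8, 36.9, 37.0 and 28.6 CPM in KO. Every KO library but KO 5 was above the WT range, and the log2 fold change of 0.25 did not pass (SE 0.09, edgeR adjusted p = 0.071). Atg2a passed with DESeq2, with upper quartile factors, without KO 5 and on KO 3 and KO 4 alone (0.35, edgeR adjusted p = 0.042). Wipi1, a relative of Wipi2 with the highest level per length of this role, was at 65.3, 66.0, 72.4, 70.0 and 68.1 CPM in WT and at 76.8, 73.7, 77.2, 72.3 and 66.3 CPM in KO (log2 fold change 0.10, edgeR adjusted p = 0.24). The groups of Wipi1 overlapped at KO 4 and KO 5. Atg9a, a lipid scramblase carried on vesicles, was at -0.05 (edgeR adjusted p = 0.59) and shares 1832 exon bases with Gm29253 on the same strand, so its counts are uncertain.

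**Figure D3:**
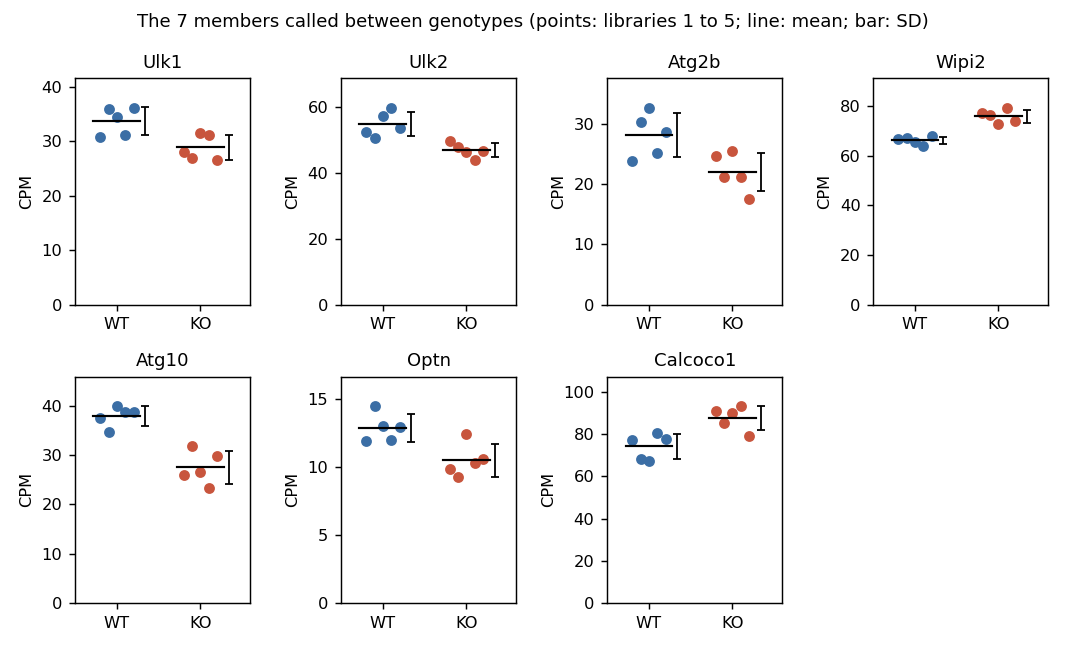
CPM (y axis, from 0) of the 7 called members in WT (blue) and KO (red) libraries, with the mean as a line and the SD as a bar (n = 5 each). The groups are separate for Ulk2, Wipi2 and Atg10 and share part of their range for Ulk1, Atg2b, Optn and Calcoco1.

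The ratio of 2 paralogs within a library does not depend on how libraries are scaled, and 6 such pairs were compared. The log2 ratio of Atg2a to Atg2b was 0.08, 0.04, -0.15, 0.28 and 0.01 in WT 1 to 5 and 0.64, 0.59, 0.53, 0.81 and 0.70 in KO 1 to 5. All 5 KO libraries were above all 5 WT libraries, KO 3 and KO 4 included, so the balance of this pair shifted toward Atg2a by 0.60 on the log2 scale. The two-sided exact permutation p was 0.00794, the smallest that 5 against 5 can give, and 0.0476 after Benjamini-Hochberg adjustment over the 6 pairs. The other 5 pairs did not pass. Ulk1 to Ulk2 differed by 0.00 (-0.70 ± 0.17 in WT and -0.70 ± 0.16 in KO; SD, n = 5; exact permutation adjusted p = 0.99). Wipi1 to Wipi2 was at -0.10, Map1lc3a to Map1lc3b at 0.07, Gabarapl1 to Gabarapl2 at 0.13 and Tfeb to Tfe3 at -0.06 (exact permutation adjusted p of 0.33 to 0.70).

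**Figure D4:**
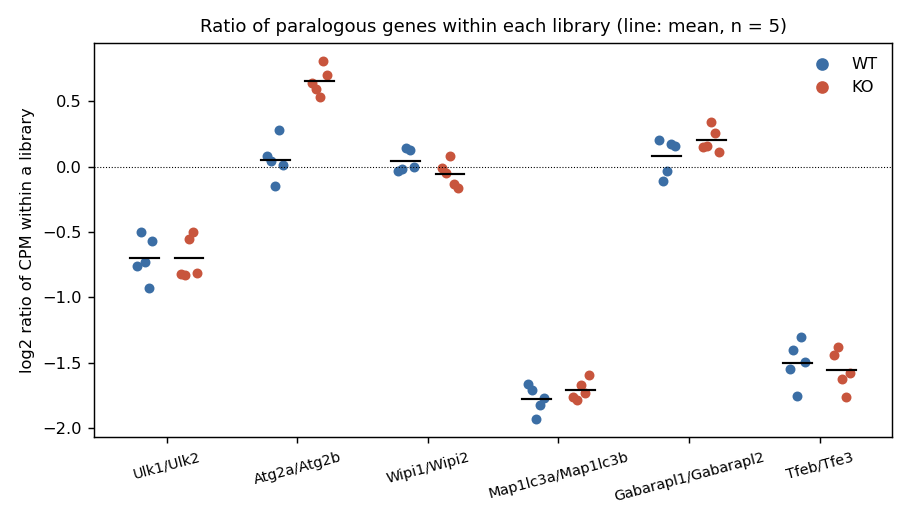
Log2 ratio of CPM (y axis) of 6 pairs of paralogs within each library, WT in blue and KO in red, with the mean as a line (n = 5 each). The groups are apart for Atg2a/Atg2b, at -0.15 to 0.28 in WT and 0.53 to 0.81 in KO, and overlap for the other pairs.

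Among the 7 conjugation genes only Atg10 was called by edgeR (14.3%, background 15.3%), and it had the lowest fold change of all 38 members. ATG10 is the E2-like enzyme that joins ATG12 to ATG5. Atg10 (ENSMUSG00000021619.6, chr13:90935356-91223968, minus strand) was at 37.5, 34.7, 39.9, 38.65 and 38.7 CPM in WT and at 25.9, 31.9, 26.6, 23.4 and 29.8 CPM in KO. The highest KO library, KO 2, was below the lowest WT library. The log2 fold change was -0.46 (SE 0.08, edgeR adjusted p = 0.0028), a level 1.38-fold lower. It was -0.59 (edgeR adjusted p = 0.0027) on KO 3 and KO 4 alone, and the call was kept under all 20 alternatives, at -0.59 to -0.41.

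The substrates of this reaction did not pass, with Atg5 at 0.10 and Atg12 at -0.08 on the log2 fold scale. Atg7, the E1-like enzyme that activates ATG12 and ATG8, was at 0.05, and Atg3, the E2-like enzyme for ATG8, at 0.06. Atg4b, the protease that trims ATG8, was at 0.12 (edgeR adjusted p = 0.13). Atg16l1, the scaffold that places the ligase on the membrane, averaged 14.5 ± 2.66 CPM over the WT pools and 11.8 ± 1.16 CPM over the KO pools (log2 fold change -0.30, edgeR adjusted p = 0.11). Apart from Atg10, the conjugation genes had values from -0.30 to 0.12, and Atg16l1 was called with the keratocyte markers as covariate.

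Atg3, Atg5 and Atg7 are shown here by sequence because they were the conjugation genes with the word CACGTG in a RefSeq promoter window. CACGTG is the core of the E-box bound by TFEB and TFE3, which activate genes of autophagy and lysosomes, and by other factors such as CLOCK. RefSeq windows (GRCm38.p6, 250 bases before to 50 after a start) were found for 31 members, in 37 windows. No entry was found for Rb1cc1, Becn1, Pik3c3, Atg12, Atg16l1, Map1lc3a and Epg5. The word, which reads the same on both strands, was in 10.8% of the members' windows and in 7.15% of all 32851 windows. The fourth member with it was Atg14, and none of the 7 called members had it. A match is a description of the sequence and not a site shown to be bound. The Atg7 window (chr6:114670846-114671145) lies inside the annotated gene (chr6:114643097-114860614, plus strand). It belongs to a RefSeq start downstream of the annotated gene start. The stretches are at chr16:45158719-45158778 (plus strand) for Atg3, chr10:44268279-44268338 (plus strand) for Atg5 and chr6:114670936-114670995 (plus strand) for Atg7, each 60 bases long and upstream of the RefSeq start, with the word in capitals.
Atg3: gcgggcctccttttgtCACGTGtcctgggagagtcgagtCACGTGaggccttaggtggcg
Atg5: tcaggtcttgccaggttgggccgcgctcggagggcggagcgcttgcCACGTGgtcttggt
Atg7: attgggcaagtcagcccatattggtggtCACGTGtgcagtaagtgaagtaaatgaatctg

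Neither transcription factor was called by edgeR (background 15.3%), and 1 had an unadjusted p under 0.05 (background 31.1%). Tfe3 was at 37.2, 35.5, 36.25, 38.9 and 37.0 CPM in WT and at 38.5, 39.5, 42.7, 42.7 and 41.3 CPM in KO. Only KO 1 lay within the WT range, at its upper end, and the log2 fold change was 0.15 (SE 0.05, edgeR adjusted p = 0.060). DESeq2 called Tfe3, the only one of the pair it called (background 20.2%). Tfeb averaged 13.2 ± 1.81 CPM over the WT pools and 13.9 ± 0.910 CPM over the KO pools (log2 fold change 0.08, edgeR adjusted p = 0.61). The activity of both factors is set by their location in the cell, which was not measured.

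All 5 genes of the ATG8 family were above 0 on the log2 fold scale, as were 8956 of all 17729 genes tested. However, Gabarap was at 0.00 with the epithelial markers as covariate and at -0.01 on KO 3 and KO 4 alone. None of the 5 was called by edgeR (background 15.3%), and 3 had an unadjusted p under 0.05 (background 31.1%). DESeq2 called 1 of the 5, Gabarapl1 (background 20.2%). These small ubiquitin-like proteins are attached to the lipid phosphatidylethanolamine and bind cargo receptors. Gabarapl1 was nearest to the threshold, at 132, 104, 105, 116 and 117 CPM in WT and at 131, 126, 139, 134 and 136 CPM in KO. WT 1 lay within the KO range and the other WT libraries below it (log2 fold change 0.21, SE 0.07, edgeR adjusted p = 0.056). Gabarapl1 also passed without WT 1, with total counts and with the keratocyte markers as covariate.

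Map1lc3a and Map1lc3b (LC3A and LC3B) were at 0.21 and 0.14 (edgeR adjusted p = 0.13 for each), Gabarapl2 at 0.09 and Gabarap at 0.05. Gabarap was at 291, 223, 209, 249 and 234 CPM in WT and at 240.4, 249, 231, 246 and 285 CPM in KO, and the KO range lay inside the WT range. Gabarap made up 42.9% to 46.0% of the summed TPM of the family in WT and 40.6% to 43.7% in KO. Map1lc3b, the member most used as an autophagy marker, made up 6.74% to 7.45% in all libraries. The order of the 5 by share was the same in every library, with Gabarap first and Map1lc3b last. This order depends on the exon length used, 7517 bases for Map1lc3b against 1181 (Map1lc3a) to 2325 (Gabarapl2) for the others. By mean CPM, not divided by length, Map1lc3b (158 in WT, 175 in KO) came after Gabarap and before Gabarapl1 (115 and 133). The last place of Map1lc3b is therefore uncertain.

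Cargo receptors moved in both directions. Calcoco1, a receptor for endoplasmic reticulum and Golgi, rose, and Optn (optineurin), which binds ubiquitinated mitochondria and bacteria, fell. Calcoco1 (ENSMUSG00000023055.10, chr15:102706777-102722178, minus strand) was at 77.4, 68.2, 67.3, 80.4 and 78.0 CPM in WT and at 90.8, 85.6, 90.1, 93.3 and 79.2 CPM in KO. Only KO 5 lay within the WT range. The log2 fold change of Calcoco1 was 0.24 (SE 0.07, edgeR adjusted p = 0.031). With the replicate block it was 0.24 (edgeR adjusted p = 0.067) and not called. Calcoco1 no longer passed without WT 2, WT 3, KO 1, KO 2, KO 3 or KO 4 (0.21 to 0.25) and on KO 3 and KO 4 alone (0.31, edgeR adjusted p = 0.062), where the value was larger.

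Optn (ENSMUSG00000026672.11, chr2:5020642-5064051, minus strand) was at 11.9, 14.45, 13.0, 12.0 and 12.95 CPM in WT and at 9.82, 9.27, 12.4, 10.3 and 10.6 CPM in KO. KO 3 was within the WT range and the other KO libraries below it. The log2 fold change of Optn was -0.30 (SE 0.09, edgeR adjusted p = 0.041). Optn lost its call with the epithelial markers as covariate (-0.22, edgeR adjusted p = 0.25) and with the replicate block (-0.30, edgeR adjusted p = 0.085). It was not called without WT 2, WT 3, WT 4, WT 5, KO 1, KO 2, KO 4 or KO 5 (-0.32 to -0.25), with total counts, with no filter, or on KO 3 and KO 4 alone (-0.17, edgeR adjusted p = 0.42). Sqstm1 (p62), the receptor with the highest level per length, was at 205, 173, 187, 215 and 206 CPM in WT and at 204, 215, 208, 219.7 and 227 CPM in KO. These overlapped (log2 fold change 0.12, edgeR adjusted p = 0.23). Nbr1, a partner of p62, was at 0.18 (edgeR adjusted p = 0.13) and passed without KO 5, and Tax1bp1 was at 0.08 (edgeR adjusted p = 0.33). Fundc1, a receptor of the outer mitochondrial membrane, was at -0.13 (55.1 ± 2.73 CPM over the WT pools, 50.5 ± 1.66 CPM over the KO pools, edgeR adjusted p = 0.099).

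Among mitophagy genes, Pink1 was not called, and Bnip3 and Bnip3l, which lie outside the 38, fell. PINK1 accumulates on damaged mitochondria and marks them for removal, while BNIP3 and BNIP3L (NIX) are receptors in the outer membrane. Pink1, the most abundant member, was at 439.9, 357, 323, 393 and 376 CPM in WT and at 375, 375, 359.9, 368 and 418 CPM in KO. The KO range lay inside the WT range (log2 fold change 0.00, 95% interval -0.18 to 0.19, edgeR adjusted p = 0.98).

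Bnip3 had the lowest fold change of the autophagy genes examined. It was at 115, 119.9, 110.1, 85.6 and 100.2 CPM in WT and at 36.1, 31.3, 40.8, 32.9 and 42.8 CPM in KO. The highest KO library had less than any WT library, KO 3 and KO 4 included (log2 fold change -1.53, SE 0.11, edgeR adjusted p = 7.8e-06). Bnip3l fell, averaging 207 ± 16.0 CPM over the WT pools against 176 ± 6.79 CPM over the KO pools (log2 fold change -0.23, SE 0.06, edgeR adjusted p = 0.028). It no longer passed without WT 1, WT 2, WT 3, WT 5, KO 2 or KO 3 (-0.24 to -0.20) and on KO 3 and KO 4 alone (-0.24, edgeR adjusted p = 0.16). It was also not called with total counts, with the replicate block (-0.23, edgeR adjusted p = 0.082) or with the epithelial markers as covariate (-0.27, edgeR adjusted p = 0.067). Its log2 fold change stayed between -0.27 and -0.20 over all 20 alternatives. The call of Bnip3 was kept under all 20 alternatives. The other mitophagy receptors Fkbp8 (0.13), Phb2 (0.15) and Bcl2l13 (-0.21) were not called by edgeR, with adjusted p of 0.12, 0.074 and 0.054. DESeq2 called Bcl2l13 lower, as did edgeR with the keratocyte markers as covariate (-0.20, edgeR adjusted p = 0.037). The promoter stretch of Bnip3 is shown because Bnip3 fell most, with CACGTG in capitals. CACGTG contains ACGTG, the core of the element bound by the hypoxia-inducible factor HIF, on both strands. ACGTG on either strand was in 32.4% of the members' windows, which do not include that of Bnip3, and 19.6% of all windows. The match in Bnip3 is not a site shown to be bound, and a part of HIF in its fall was not tested. The stretch is at chr7:138909587-138909646 in GRCm38.p6, minus strand.
Bnip3: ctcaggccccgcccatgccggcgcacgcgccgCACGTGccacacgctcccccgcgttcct

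**Figure D5:**
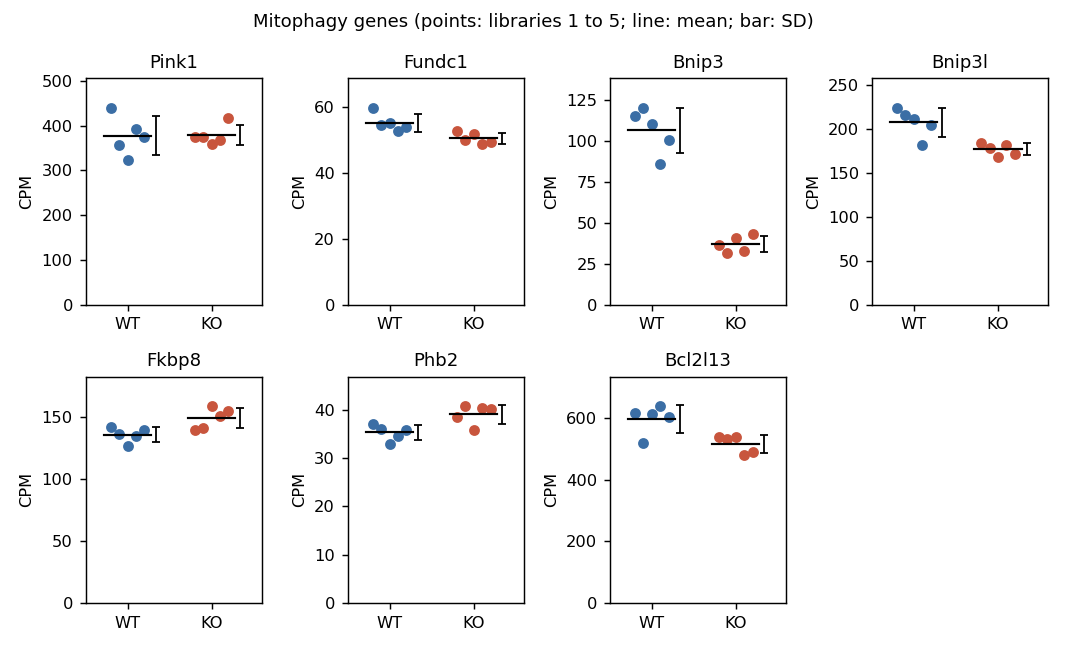
CPM (y axis, from 0) of 7 mitophagy genes in WT (blue) and KO (red) libraries, with the mean as a line and the SD as a bar (n = 5 each). Pink1 has nearly the same mean in both groups (378 and 379 CPM), whereas Bnip3 falls from 106 to 36.8 CPM with no overlap.

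The last step is fusion of the autophagosome with the lysosome. Its 3 genes were not called by edgeR (background 15.3%) or DESeq2 (background 20.2%), and 0 of them had an unadjusted p under 0.05 (background 31.1%). Rab7, which recruits tethers to late endosomes, was at 331, 287, 304, 308 and 319 CPM in WT and at 316, 318, 317, 328.5 and 331 CPM in KO. The groups overlapped (log2 fold change 0.06, 95% interval -0.07 to 0.18, edgeR adjusted p = 0.51). The SNARE protein Stx17 was at -0.07 and the tether Epg5 at -0.17 (edgeR adjusted p = 0.42 and 0.43). Epg5 was at 19.3 CPM in KO 5 and at 27.6 to 34.35 CPM in the other KO libraries, against 25.45 to 35.7 CPM in WT.

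Beyond the 38 genes, 66 further genes of the pathway were examined. Of the 65 tested, 4 rose, 4 fell and 57 did not pass, which is 12.3% against the 15.3% of all genes tested, with a median of 0.01. Of 15 tested core genes, Wdr45 and Tmem41b rose and Atg4a and Ulk3 fell. Wdr45 (WIPI4), a partner of the ATG2 proteins, rose, averaging 21.8 ± 0.422 CPM over the WT pools against 29.2 ± 2.23 CPM over the KO pools (log2 fold change 0.43, SE 0.06, edgeR adjusted p = 5.3e-04) and kept its call under all 20 alternatives. It shares 818 exon bases with Gm45208 on the same strand (log2 fold change 0.34, edgeR adjusted p = 0.0085), so reads of these genes may be split between them. Atg4a, a protease related to Atg4b, fell with no overlap, averaging 17.5 ± 1.03 CPM over the WT pools against 13.8 ± 0.628 CPM over the KO pools (log2 fold change -0.34, edgeR adjusted p = 0.0031; on KO 3 and KO 4 alone -0.34, edgeR adjusted p = 0.054).

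Ulk3, a relative of the initiation kinases, fell, averaging 6.43 ± 2.17 CPM over the WT pools against 3.70 ± 0.378 CPM over the KO pools (edgeR adjusted p = 0.026), but WT 1 at 3.40 CPM lay within the KO range, and it no longer passed without WT 2, WT 3, WT 5, KO 1 or KO 4 (-0.80 to -0.67) on KO 3 and KO 4 alone (-0.87, edgeR adjusted p = 0.14) or with the epithelial markers as covariate (-0.91, edgeR adjusted p = 0.056). Tmem41b, an endoplasmic reticulum scramblase, was called at 0.20 (edgeR adjusted p = 0.041). It lost the call without WT 1, WT 2, WT 3, WT 5, KO 1, KO 4 or KO 5 (0.17 to 0.20) and on KO 3 and KO 4 alone (0.20, edgeR adjusted p = 0.21). The call was also lost with the epithelial markers as covariate (0.18, edgeR adjusted p = 0.22), with the replicate block (0.20, edgeR adjusted p = 0.075) and with no filter. None of 13 fusion genes outside the 38 was called by edgeR (background 15.3%), 5 had an unadjusted p under 0.05 (background 31.1%), and DESeq2 called 1, Vamp8 (background 20.2%). Of 20 genes of upstream signalling, 2 rose and 0 fell by edgeR (10%, background 15.3%). Of these 20, 7 had an unadjusted p under 0.05 (background 31.1%), and DESeq2 called 3 higher and 1 lower (background 20.2%). Trp53inp2, a nuclear protein that supports ATG8 recruitment, was at 59.6 to 70.7 CPM in WT and at 107, 98.8, 76.9, 85.5 and 117 CPM in KO 1 to 5 (log2 fold change 0.54, SE 0.10, edgeR adjusted p = 0.0045). Its value was 0.29 (edgeR adjusted p = 0.058) on KO 3 and KO 4 alone and also 0.29 (edgeR adjusted p = 0.020) with the epithelial markers as covariate, and Trp53inp2 passed under 19 of 20 alternatives. Akt1s1 (PRAS40), an inhibitor of mTORC1, rose by 0.27 (SE 0.06, edgeR adjusted p = 0.0099; on KO 3 and KO 4 alone 0.27, edgeR adjusted p = 0.11), and its neighbour Tbc1d17 overlaps it on the opposite strand by 89 bases. The kinase Mtor itself was at 0.03 (edgeR adjusted p = 0.84).

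Across the 38 members, the log2 fold change was positively related to the level in TPM (Spearman rho 0.40, n = 38 genes, against 0.06 over all tested genes) and was nearly unrelated to exon length (rho -0.10, against -0.18 over all tested genes). These are descriptions across genes that share the same 10 libraries, and genes are not independent replicates.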

How the data were processed

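The authors deposited raw read counts per gene and library, and per the submitters' processing notes the tools were Trim Galore 0.6.4, cutadapt 2.4, HISAT2 2.1.0 and featureCounts of Subread 1.6.4 with GRCm38.p6. Per the labels' protocols, library preparation was stranded and poly(A) selected, with 100 ng of RNA as input and 12 PCR cycles. Strand setting and multi-position reads: not given in the sources used here. All 55450 identifiers matched GENCODE M21. Counts were tested with edgeR 4.0.16 (R 4.3.3): filterByExpr (minimum count 10, minimum total 15), TMM scaling and the quasi-likelihood F test of KO against WT without covariates, with Benjamini-Hochberg adjustment over 17729 genes and a threshold of 0.05. Standard errors are from that fit, and 95% intervals use 8 degrees of freedom. The code was tested on simulated data. Paralog ratios used log2 CPM with a prior count of 2. Libraries held 36026193 to 51008996 counts, 99.9% or more in tested genes. No libraries of a group agreed within sampling noise (chi-square divided by its degrees of freedom, 14.4 to 86.3). Values in every library are given for called members, for the most abundant of each role by level per length and for some chosen after their values were seen. Of the other autophagy genes, the called ones are named by rule, and the uncalled ones named were chosen after their values were seen. In the list of other autophagy genes, 1 gene is not reported here. The members, lists, tests and alternatives were chosen with earlier results of these data known. The alternatives were edgeR with DESeq2 size factors, total counts or upper quartile factors; DESeq2 1.42.0; no filter, or at least 1 CPM in 5 libraries; a replicate block; epithelial or keratocyte markers as covariate; KO 3 and KO 4 alone standing for KO; and each library left out.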

Additional observations from a re-analysis of the deposited data

Results flagged for a closer look

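In groups of 5 libraries, the highest or lowest library was compared with the rest by the size of its gap (Dixon's test, critical value 0.71), for 92 groups of named genes and genotypes, and 3 were marked, where chance marks about 1 in 20. All 3 were KO 5, the library with the most epithelial marker transcripts. Rb1cc1 was at 33.0 CPM in KO 5 and at 36.0 to 37.1 CPM in the other KO libraries. Map1lc3a was at 62.5 CPM in KO 5 against 50.0 to 52.7 CPM, and Pink1 at 418 CPM against 359.9 to 375 CPM. edgeR called none of these genes between genotypes with all libraries, and their unadjusted p was under 0.05 for Rb1cc1 and Map1lc3a. Rb1cc1 was called lower by DESeq2, with the keratocyte markers as covariate and without WT 1, and Map1lc3a was called higher without WT 1.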

How the results depend on the processing

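Against 1346 genes higher and 1370 lower, the replicate block called 750 and 941, the epithelial markers as covariate 535 and 654, KO 3 and KO 4 alone 527 and 578, DESeq2 1730 and 1848, and total counts 1553 and 1054. Leaving out each library gave 836 (without WT 3) to 1532 higher and 965 to 1666 lower. The same-numbered libraries deviated together with correlations of -0.42 to 0.09, and no KO library correlated best with its own number. The values thus gave no sign of pairing by number. Uneven epithelial transcripts among the KO libraries also enter these correlations, so they cannot decide whether a preparation step was shared by number. Of the 38 members, 2 higher and 5 lower became 5 and 6 with DESeq2, 3 and 2 with total counts, 2 and 3 with no filter, 0 and 1 with the replicate block, 1 and 1 with the epithelial covariate, and 1 and 1 on KO 3 and KO 4 alone. Leaving out each library gave 1 (without WT 2, WT 3 or any of KO 1 to KO 4) to 4 (without WT 1 or KO 5) higher and 2 (without any library but WT 1 and KO 3) to 6 lower. Of the other autophagy genes, 4 higher became 7 with DESeq2, and 4 lower became 2 with the epithelial covariate and 1 on KO 3 and KO 4 alone. Left-out libraries gave 3 to 6 higher and 2 (without WT 3 or WT 5) to 5 lower. The median of the members, 0.064, was 0.088 with total counts, where the median of all genes was 0.03, 0.076 with upper quartile factors, 0.054 with the epithelial covariate, 0.055 on KO 3 and KO 4 alone and 0.054 to 0.077 with a library left out. The replicate block ended every member's call but that of Atg10. The Atg2a/Atg2b ratio was 0.62 on KO 3 and KO 4 alone (exact permutation adjusted p = 0.286) and 0.60 with the replicate block (exact sign flips, adjusted p = 0.375). The smallest p of the sign flips is 0.0625, so that design cannot pass. On KO 3 and KO 4 alone there are few assignments of the libraries, and the adjusted p also depends on the other pairs. The Ulk1/Ulk2 ratio, 0.00, was 0.18 on KO 3 and KO 4 alone and -0.06 to 0.05 with a library left out. Directions of uncalled members turned as follows, none of them called. With the epithelial covariate, Atg9a was at 0.03, Atg3 at -0.04, Gabarap at 0.00, Pink1 at -0.03 and Epg5 at 0.01. On KO 3 and KO 4 alone, Atg14 was at 0.04, Atg9a at 0.03, Atg3 at -0.06, Gabarap at -0.01 and Pink1 at -0.05. With a library left out, Uvrag ran from -0.01 to 0.04 and Pink1 from -0.05 to 0.07. The cause of these changes was not tested. TPM divides by exon length, so members below 10 TPM do not all rest on few counts. Among them, Rb1cc1 had 1265 to 2320 counts per library and Atg14 366 to 618.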
